A study of Homo sapiens with 6 samples.

Results

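LoVo is a human colorectal adenocarcinoma cell line, and the control LoVo cells described here served as the reference of an LGR5 knockdown study. They had been infected with a lentiviral pLKO.1 vector, given in the labels both as that vector and as a non-targeting hairpin, and were grown in RPMI medium with serum and puromycin. The control cells are therefore selected, virus-infected LoVo cells and not the parental line, which was not analysed here. Total RNA was hybridised to Illumina bead arrays, and the control group holds 2 of the 6 arrays of the study. No intensity of the other arrays, 2 for each of 2 hairpins against LGR5, is given below. The noise threshold, however, was set earlier for the whole study, and the intensities were quantile-normalised before deposit. The chosen arrays are those titled as LoVo with the control vector, and each annotated gene was represented by its probe with the highest mean intensity on them. This gave 20039 genes from 30113 probes with a single listed gene. With 1 group of 2 arrays the account is descriptive, and no test was made. Nothing in the labels says whether the replicates came from separate cultures, so their spread may be technical.

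Colorectal epithelium is renewed from crypt stem cells, which depend on Wnt signals read out through beta-catenin and TCF factors. Their daughters become absorptive cells, with a brush border of transporters and digestive enzymes, or secretory cells such as mucus-making goblet cells. Colorectal carcinoma lines keep parts of these programmes in varying mixtures, together with the ribosome and energy metabolism genes of dividing cells.

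Pairs of intensities below are those of replicates 1 and 2, on the linear, background-subtracted and quantile-normalised scale of the deposited table, on which values near or below 0 are background. The noise threshold lies just under 16.6, so that with values given to 1 decimal 16.6 was the lowest that passed. A gene was called above background when it passed on both arrays, which 10689 of the 20039 genes did (53.3%). Among these, 2333 genes had a mean of at least 1000 and are called strong here (11.6% of all genes), 5096 lay from 100 to under 1000 and are called moderate, and 3260 lay under 100 and are called weak. A further 1796 genes passed on 1 array, and 7554 passed on neither. The strong genes carried 81.1% of the summed intensity, the moderate genes 17.1% and the weak genes 1.45%. Probes of different genes differ in how brightly they read the same amount of RNA, so a rank orders probe signals and not molecules per cell. A value not above the threshold says only that the probes used gave no signal there. In a bulk sample, a gene read weakly in all cells and one read strongly in few of them cannot be told apart.

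**Figure D1:**
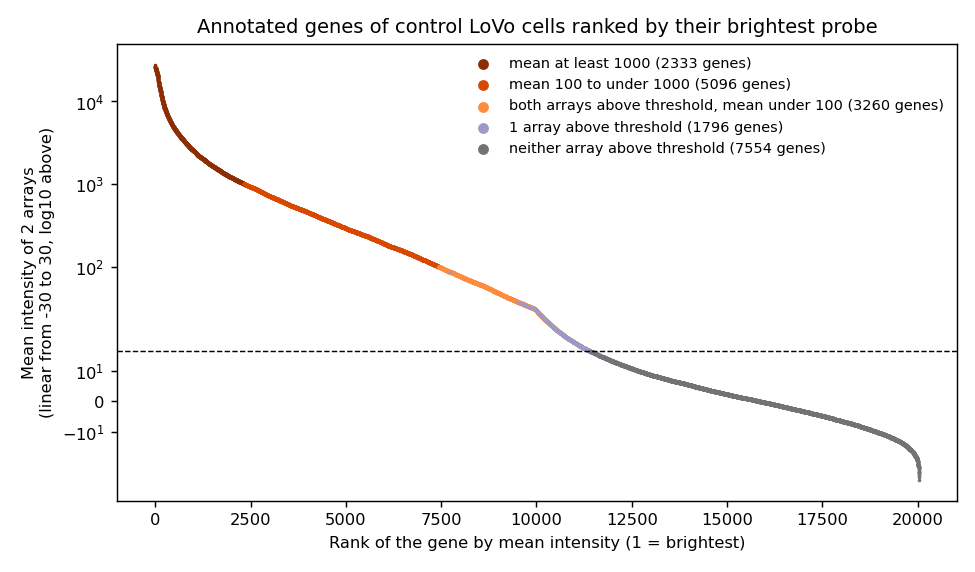
Mean intensity of the 2 control arrays (vertical axis, linear near 0 and log10 above) against the rank of each of the 20039 annotated genes, coloured by class, with the threshold dashed. The curve falls from 27872 at rank 1 without a step between the classes, so the limits of 100 and 1000 divide a continuous range.

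The brightest gene was EEF1A1, the elongation factor that brings aminoacyl-tRNA to the ribosome, at 26517 and 29227. RPL3, a protein of the large ribosomal subunit, followed at 27080 and 25927. TPT1, the translationally controlled tumour protein, read 25042 and 27918. The values of these 3 genes overlapped between arrays, and the ranks among them have no weight. RPS6, a protein of the small subunit, read 27213 and 25269, and ATP5F1B, the beta subunit of ATP synthase, read 26177 on each array. Of the 30 brightest genes, 18 encode ribosomal proteins and 2 are transcribed pseudogenes, and their means span only 1.18-fold, from 27872 down to 23662. The median SD between arrays in this group was 642. Among all 10689 genes above background, the gap to the next gene was set against the SD between arrays of the brighter gene. The gap exceeded that SD in 81 of 10688 neighbouring pairs (0.758%), so adjacent ranks were almost nowhere separated. The 100 brightest genes took 18.9% of the summed intensity, and the 500 brightest took 47.6%.

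Not every gene near the top is a housekeeping gene. TMSB4X, the actin-binding thymosin beta 4, read 26113 and 25234 through 1 of its 2 probes, while the other averaged -5.6. CLEC2D, a lectin-like receptor known from lymphocytes, read 24044 and 24913, yet only 2 of its 5 probes were above background. LAIR1, an inhibitory receptor of immune cells, read 23817 and 24680 with its other probe at a mean of 22.1. Each of these ranks rests on a choice of probe. PPIAL4A, a retrocopy of cyclophilin A, read 25127 and 24505, whereas the probe listed for PPIA itself read 399 and 381. The pseudogenes RPL13AP5 and RPSAP9 stand in the same group, at means of 25877 and 23686. Signal of a parent gene and of a near-identical copy cannot be told apart here, because probe sequences were not used.

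Of 2333 strong genes, 1034 have several probes, and in 267 of them at least 1 probe was not above the threshold. In 139 the strong reading rests on a lone probe above background. After TMSB4X and CLEC2D, bright genes with a probe not above the threshold included 3 copies of other genes, RPL13AP3, SLC7A5P2 and RPL19P12. Another was HSPD1, the mitochondrial chaperonin, at 20641 and 20776. Of its 4 probes 3 were above background, and the dimmest averaged 12.6.

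The 70 cytosolic ribosomal protein genes measured had a median of 21167, and 69 of them were above background, 66 strongly. RPL10 was the exception, at 31.8 and 2.2, although its protein is a component of the large subunit. At the lower end of those above background stood RPL36A at 394 and 475, RPL28 at 689 and 766 and RPL37 at 769 and 691. Of 6 related genes with tissue-restricted copies, 3 were strong and 3 were not above background. RPS27L, a p53-responsive relative of RPS27, read 9451 and 9492. RPL39L, whose product replaces RPL39 in male germ cells of mice, read 2089 and 2135. RPL22L1 read -14.1 and -5.2, and RPL3L, the form of striated muscle, read -9.4 and 13.5.

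The 2 arrays agreed closely at the bright end and less at the dim end. Log2 differences between replicates were taken after values below 0 were set to 0 and an offset of 16 was added. Their SD was 0.15 in strong genes, 0.22 in moderate genes and 0.32 in weak genes. Over all genes above background it was 0.24, and 4 genes differed by more than 2-fold on this offset scale, which narrows differences of dim genes. NSD1, a histone H3 lysine 36 methyltransferase, read 136 and 1022, a difference of 2.77. ADORA1, an adenosine receptor, read 18.7 and 73.1, and MEG8, a long non-coding RNA of an imprinted cluster, read 20.5 and 63.4. ALAS1, the first enzyme of haem synthesis, went the other way at 133 and 55.1. NSD1 alone stood far from the rest, and 3 of these 4 were brighter on replicate 2. The tenth widest difference, 0.95, belonged to MARVELD2, the tight junction protein tricellulin, at 55.3 and 20.8. Before the offset these 2 values lie more than 2-fold apart.

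**Figure D2:**
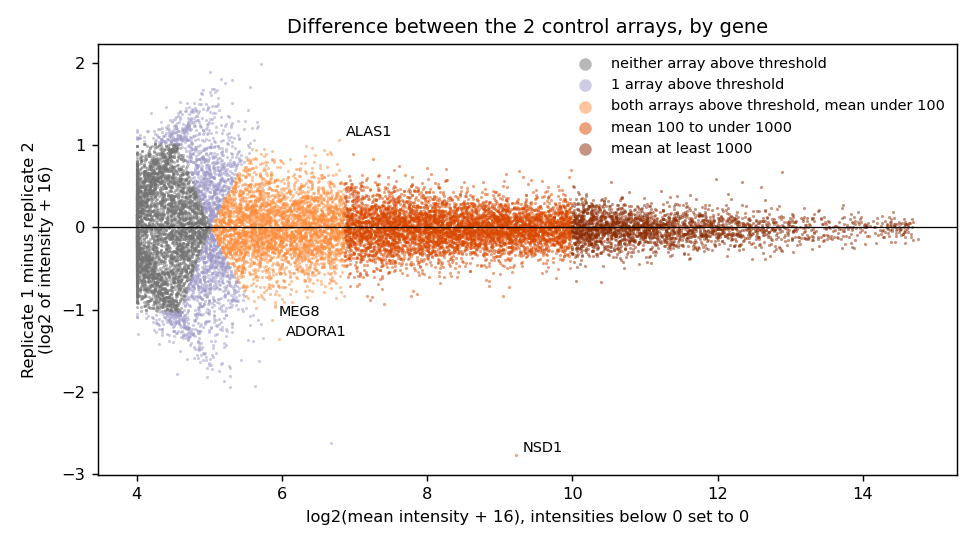
Difference between the 2 control arrays for each gene (vertical axis, replicate 1 minus replicate 2 in log2 of intensity + 16) against its mean (horizontal axis, same scale, intensities below 0 set to 0), coloured by class. The cloud narrows from an SD of 0.32 in weak genes to 0.15 in strong genes, and NSD1 lies alone at -2.77.

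The call depends on small differences near the threshold. PRKACB, a catalytic subunit of protein kinase A, read 40.3 on replicate 1 and just missed on replicate 2, where its value was equal to the threshold. STK33, a serine/threonine kinase, RNF185, a ubiquitin ligase, and the microRNA gene MIR635 missed in the same way, with 23.0, 27.9 and 45.0 on replicate 1. On the other side, OR2M4, an olfactory receptor, passed with 16.6 and 20.8, and CRHBP, the binding protein of corticotropin-releasing hormone, with 16.6 and 28.0. APOBEC3C, a cytidine deaminase, passed at 16.6 and 25.4 and MAMSTR, a muscle transcription coactivator, at 34.6 and 16.6. Genes on either side of the line read alike.

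Genes were then read in 44 lists drawn from cell types, pathways and families, of which 1236 of 1346 genes had an annotated probe, and 783 of these were above background. Each count can be set against the 53.3% of all annotated genes and the median of all genes, 29.4. The lists were chosen partly for genes that colorectal cells use, so shares above 53.3% are descriptions of these lists.

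**Figure D3:**
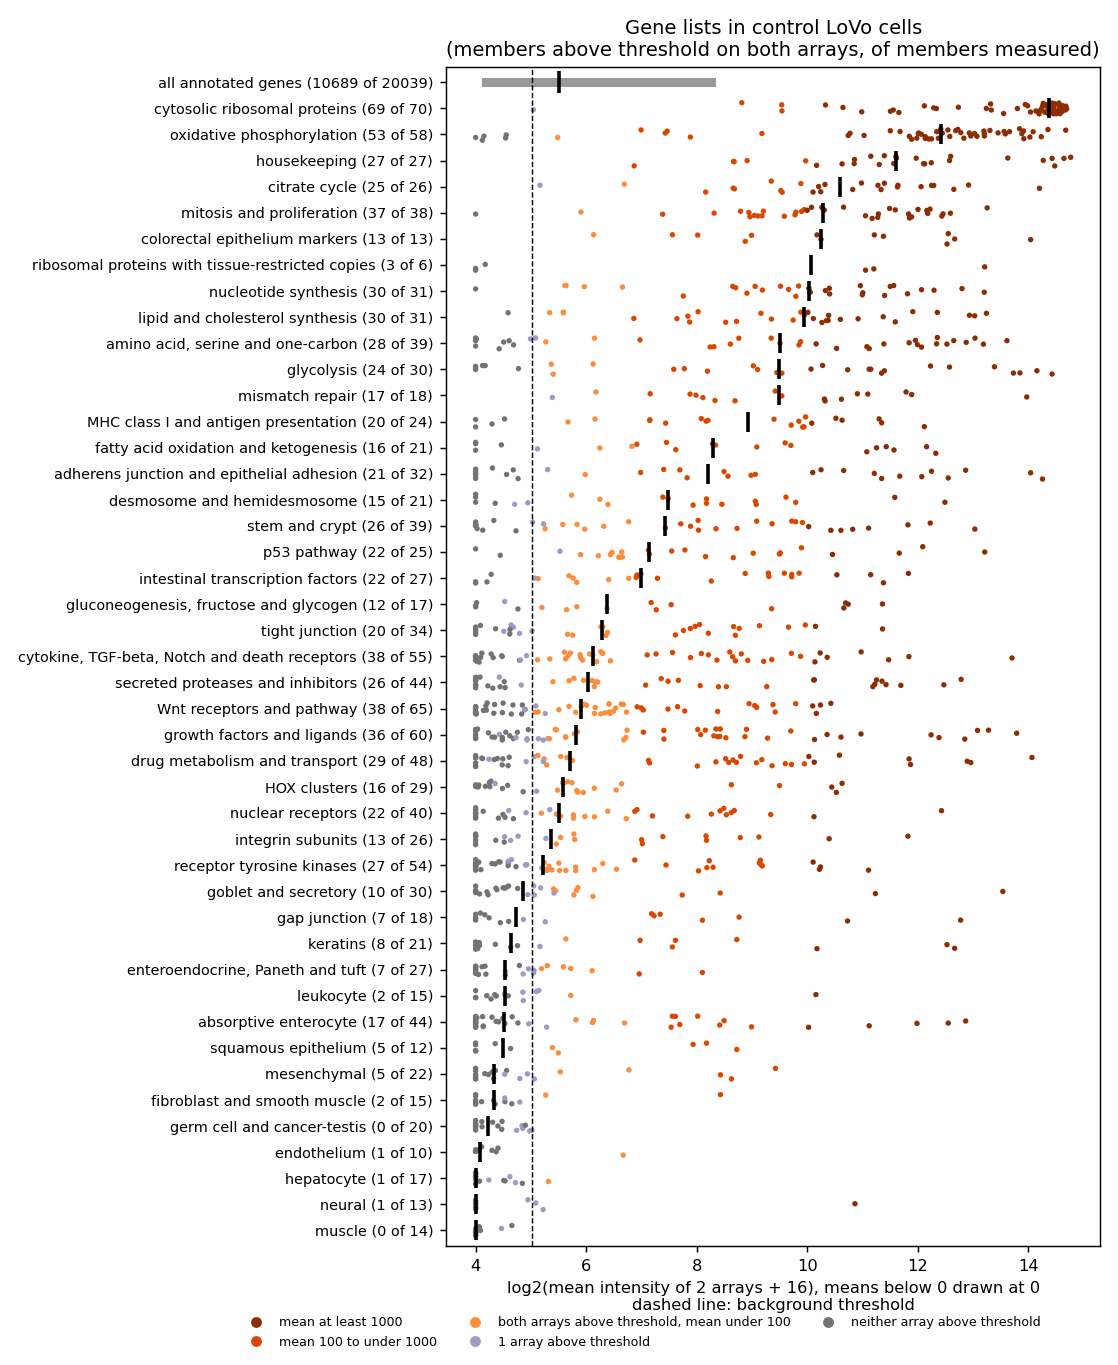
Mean intensity of each measured member (points, horizontal axis in log2 of intensity + 16, means below 0 drawn at 0) of the 44 gene lists, ordered by list median (black bar), with all 20039 genes at the top as the median and interquartile range. Ribosomal proteins and oxidative phosphorylation lie to the right of every other list, and the lists of muscle, neural, hepatocyte and endothelial genes lie with their medians on the left edge or near it.

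Defining genes of the labelled cell type were present. All 13 measured colorectal epithelium markers were above background, 8 of them strongly, with a median of 1202. EPCAM, the epithelial adhesion molecule of colon, read 17055 and 16665 on the brightest of 3 probes, all of which were above background. KRT19, a simple-epithelium keratin, read 6432 and 6549.7, and CDH17, the intestinal cadherin, read 5745 and 6229.7. All of these are strong readings. CDX2, the homeobox factor that specifies intestine, read 2414 and 2884, and CDH1, E-cadherin, read 2209 and 2511. CEACAM5, the carcinoembryonic antigen, read 1122 and 1282. Some members of the list were dimmer. LGALS4, a galectin of the intestinal lining, read 503 and 484, and GPA33, a surface antigen of the gut, read 236 and 251. KRT20, a keratin of differentiated cells, read 179 and 167, and its dimmest probe was not above background. VIL1, the microvillus protein villin, was the dimmest of the list at 63.2 and 45.3.

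Of 27 intestinal transcription factors measured, 22 were above background, with a median of 111. FOXA2, a pioneer factor of endoderm, read 3861 and 3393, but through 1 of its 3 probes. MYB, a factor of proliferating crypt cells, read 2092 and 2415. KLF5, a Kruppel-like factor of crypts, read 1752 and 1186, a wide spread for its brightness. Below these strong genes were ELF3, an epithelial ETS factor, at 944 and 875, and SOX9, a factor of crypt and Paneth cells, at 834 and 822. CDX1, the partner of CDX2 along the colon, read 417 and 492, and HNF4G, a nuclear receptor of enterocytes, read 273 and 311. At the lower end GATA6, an endoderm factor, read 35.6 and 35.7, and TCF7L2, the main TCF factor of intestinal Wnt signalling, read 21.3 and 16.8, barely past the line. GATA4, GATA5, FOXA3 and ESRP2 were not above background on either array, and ESRP1, a splicing regulator of epithelia, passed on 1 array at 12.7 and 22.4. SOX2, a factor of foregut and pluripotent cells, read 109.7 and 76.6.

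Absorptive genes divided into a small set that was bright and a larger set without signal. Of 44 measured, 17 were above background and the median was 6.8. The bright ones are structural or widely used in epithelia. EZR, ezrin, which ties actin to the microvillus membrane, read 6735 and 8181. LGALS3, galectin 3, read 4365 and 3715, and MUC13, a transmembrane mucin, read 2206 and 2218. CA2, a carbonic anhydrase, read 1132 and 921. DPP4, a brush border peptidase, read 322 and 329, and MYO1A, the brush border myosin, read 160 and 179.6. Most enzymes, transporters and lipid carriers of the mature brush border gave no signal above the threshold. SI, sucrase-isomaltase, read 4.9 and 13.7. FABP1, the fatty acid binding protein of enterocytes and liver, read 1.0 and -6.3. SLC26A3, the chloride exchanger of colonocytes, read -18.5 and -15.9, and CA1, the carbonic anhydrase of surface colonocytes, read -20.5 and -19.9. ANPEP, SLC5A1, APOA1, APOA4, APOB and MTTP also lay below the threshold on both arrays. ALPI, intestinal alkaline phosphatase, passed on 1 array at 17.6 and 12.7.

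Goblet and secretory genes showed a similar division, with 10 of 30 above background and a median of 12.95. AGR2, a disulfide isomerase needed to make mucins, read 12163 and 11615 and ranked 161. REG4, a secreted lectin of the regenerating family, read 2495 and 2290.0. DLL1, a Notch ligand of secretory precursors, read 343 and 313, and FCGBP, a mucus protein, read 208 and 187. Other mucus products were weak. MUC2, the gel-forming mucin of the colon, read 38.6 and 42.5, TFF3, its trefoil partner, read 47.5 and 59.8, and MUC5B read 27.1 and 28.2. ATOH1, the factor that commits cells to the secretory fate, read -9.4 and 14.8, and SPDEF, its goblet effector, read 10.6 and -1.3. CLCA1, ZG16 and ITLN1, further goblet products, were also under the threshold on both arrays. Among the 8 mucins measured across the lists, MUC13 alone was strong.

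Enteroendocrine, Paneth and tuft cell genes were mostly without signal, with 7 of 27 above background and none strong. The count was 12 without replicate 1, 3 with a threshold of 33 and 4 with the dimmest probe. IL25, a cytokine of tuft cells, read 270.3 and 247.6 through 1 of 3 probes. NTS, neurotensin, read 118 and 99.0, and MMP7, matrilysin, read 56.8 and 49.1. LYZ, lysozyme, read 32.1 and 41.3. The hormone INSL5, the endocrine transcription factor INSM1 and the granule protein SCG5 made up the rest of the 7. They were weak and did not pass with the threshold of 33. CHGA, GCG, PYY and SST, peptide hormones or granule proteins, were not above background, and neither were the Paneth defensins DEFA5 and DEFA6.

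**Figure D4:**
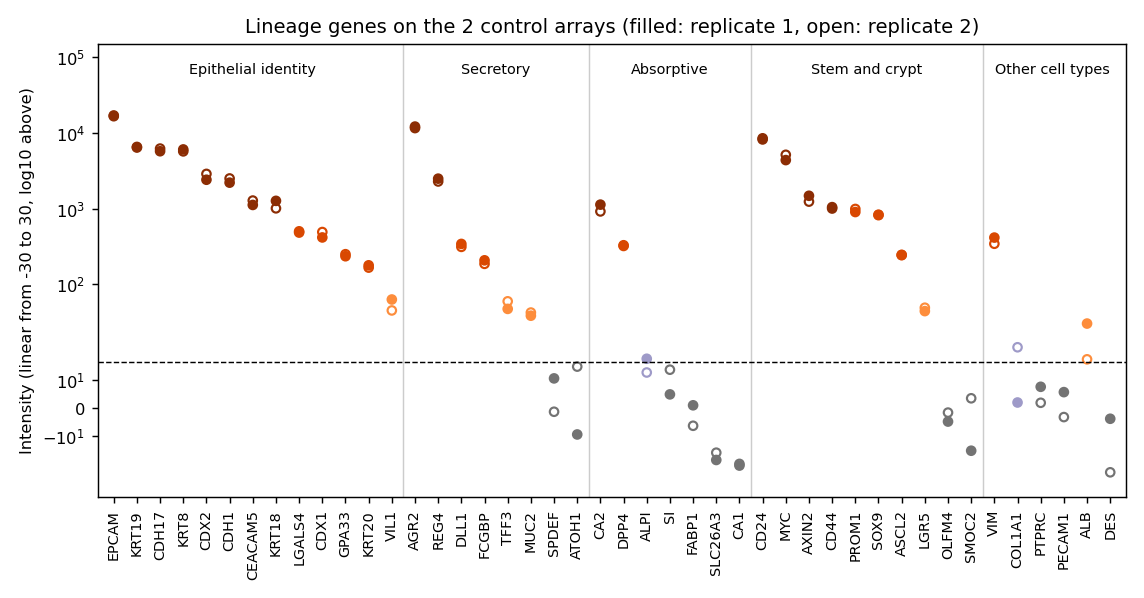
Intensity on replicate 1 (filled) and replicate 2 (open) for genes of 5 groups (vertical axis linear near 0 and log10 above, threshold dashed). Epithelial identity genes lie above the line down to VIL1 at 63.2 and 45.3, whereas the secretory, absorptive and stem groups each end in genes below it.

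Stem and crypt genes were largely present, with 26 of 39 above background and a median of 157. CD24, a surface glycoprotein of crypt cells, read 8223 and 8514. MYC, the growth regulator downstream of Wnt, read 4389 and 5156, and CDCA7, a cell-cycle gene of the crypt base, read 2339 and 2051. BMI1, a Polycomb protein, read 1722 and 1868, and AXIN2, the negative-feedback target of beta-catenin, read 1482 and 1241. These lay far above background on both arrays. CD44 and PROM1 (CD133), surface proteins often used to sort tumour-initiating cells, read 1049 and 1006 and 904 and 993. ASCL2, a transcription factor of stem cells, read 243 and 246, and RNF43, a ubiquitin ligase that removes Frizzled receptors, read 221 on each array. LGR5, the R-spondin receptor that the study knocked down, was weak in these controls at 44.4 and 49.2 on a lone probe, and ranked 9042. ZNRF3, the relative of RNF43, read 36.7 and 45.5. OLFM4, SMOC2 and SP5, markers often seen with LGR5 in crypts, were not above background, nor were the pluripotency factors NANOG and POU5F1.

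In the Wnt pathway 38 of 65 measured genes were above background, mostly at low intensity, with a median of 44.15. Of the ligands, 7 of 17 passed, and WNT5B was highest at 125 and 86.0. None of the 4 R-spondins, the ligands of LGR receptors, was above background. Receptors were more widely seen, with 8 of 10 Frizzled genes above background. FZD9 was the brightest of them at 479 and 477, and FZD2 followed at 179 and 192. Co-receptors were LRP5 at 302 and 332 and LRP6 at 84.8 and 87.4. RYK, an atypical Wnt receptor, read 1182 and 1204. The LGR5 relatives LGR4 and LGR6 read 53.4 and 85.1 and 85.4 and 62.6, in the same weak range as LGR5. Inside the cell, AXIN1, the scaffold of the destruction complex, read 1140 and 1124, and CTNNB1, beta-catenin, read 911 and 1251 with 3 of 7 probes above background. GSK3B, the kinase that marks beta-catenin, read 479 and 549.6. APC, the tumour suppressor known to be mutated in LoVo cells, read -1.2 and 4.5 on its lone probe. Of 8 secreted antagonists (SFRP, WIF1 and DKK genes), DKK1 alone passed, at 613 and 688. LEF1, a TCF family factor low in normal colon, read 549 and 505.

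Adhesion genes of epithelial contacts were bright. Of 32 adherens junction and adhesion genes, 21 were above background, 12 strongly, with a median of 278. TSPAN8, a tetraspanin of gut tumours, read 19672 and 19473 and ranked 75. CTNNA1, alpha-catenin, read 6793 and 8112, and VCL, vinculin, read 2739 and 2440.4. CEACAM6 read 4447 and 4138, and of 7 CEACAM genes CEACAM5, CEACAM7 and CEACAM1 also passed. CDH3, P-cadherin, which is low in normal adult colon, read 469 and 511. CDH2, N-cadherin, read -12.9 and 12.6, so the epithelial cadherins were seen without it. CTNND1, p120-catenin, passed on 1 array at 30.7 and 16.2.

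Of 34 tight junction genes 20 were above background, 2 of them strong, 12 moderate and 6 weak, and the median was 62.0. CLDN7, a claudin of the colon, read 2432 and 2802, and CRB3, an apical polarity protein, read 1133 and 1107. TJP1, the scaffold ZO-1, read 881 and 1087. Of 19 claudins, 9 were above background, CLDN12, CLDN3 and CLDN1 next after CLDN7. CLDN4 read 49.9 and 85.4, and CLDN2, a pore-forming claudin, read 10.9 and 6.2. OCLN, occludin, was not above background with either of its 2 probes and read -1.2 and -7.5 on the brighter.

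Of 21 desmosome and hemidesmosome genes, 15 were above background, with a median of 163. With the dimmest probe of each gene the count was 10. DSG2, the desmoglein of simple epithelia, read 6028 and 5458, and its partner DSC2 read 787 and 954. DSP, desmoplakin, read 731 and 806, but its dimmest probe was not above background. DSC3 and DSG3, the forms of stratified epithelium, read 249.7 and 297 and 194 and 263, while DSG1 and DSC1, the forms of outer epidermis, did not pass. In gap junctions 7 of 18 genes passed. GJC1, connexin 45, read 6924 and 7064 on 1 of 2 probes, its other probe averaging 10.75, and GJB2, connexin 26, read 1763 and 1602. GJB1, connexin 32 of the intestine and liver, passed on 1 array at 6.7 and 19.6.

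The 3 strong keratins were those of simple epithelia. Of 21 measured, 8 were above background, with KRT19 first, KRT8 at 6069 and 5720.4 and its partner KRT18 at 1270.1 and 1012 next. KRT10, also counted with the squamous genes below, was moderate at a mean of 407. KRT7, a keratin usually low in colon, read 108 and 111, and KRT80 and KRT9 also passed. KRT5 and KRT14, the basal keratins of stratified epithelia, and KRT1 were below 0 on both arrays. Integrin subunits passed in 13 of 26 cases. With the dimmest probe of each gene the integrin count was 8. ITGB1, the common beta 1 chain, read 3334 and 3876, and ITGB5 read 1271 and 1394. The dimmest probes of ITGB1, ITGB5, ITGA3 and ITGA6 were not above background. ITGAV, ITGA6, ITGA2 and ITGA3, chains that pair with ITGB1 or ITGB5 in epithelia, lay between 94.9 for ITGA3 and 619 for ITGAV on single arrays. ITGAL, a chain of leukocytes, and ITGA2B, the chain of platelets, were not above background.

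Mesenchymal genes were mostly not above background, with 5 of 22 above background and a median of 4.28. Without replicate 1 the count was 8. S100A4, a calcium-binding protein also found in many carcinoma lines, read 692 and 650.1. VIM, vimentin, read 416 and 344 on 1 of 2 probes, and ACTA2, smooth muscle actin, read 336 and 322. SNAI2, a repressor of E-cadherin, was weak at 24.9 and 35.6. ZEB1, ZEB2, TWIST1, SNAI1 and FN1, the core factors and matrix product of epithelial-mesenchymal transition, were not above background.

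Markers of other cell types were near background as lists. Leukocyte genes passed in 2 of 15 cases, and PTPRC (CD45), CD3E, CD8A and CD4 were not among them. CD68, a lysosomal protein best known from macrophages, was strong at 1103 and 1148. Endothelial genes passed in 1 of 10 cases, ESAM at 105 and 67.0, with PECAM1 at 5.7 and -3.2. Fibroblast and smooth muscle genes passed in 2 of 15 cases, ACTA2 and PDGFRB. Hepatocyte genes passed in 1 of 17 cases, ALB at 30.4 and 17.4. Neural genes passed in 1 of 13 cases, MBP, myelin basic protein, at 1694 and 2003 on the brightest of 3 probes. Squamous genes passed in 5 of 12 cases, led by KRT10 at 410.2 and 405. No gene of 14 for muscle or of 20 for germ cells and cancer-testis antigens was above background on both arrays, although MAGEA6 read 28.4 on replicate 1 and 2.6 on replicate 2. On 1 array alone, 5 germ cell and cancer-testis genes passed without replicate 2 and 1 without replicate 1, and 1 muscle gene passed without replicate 2. Without replicate 1, the counts were 6 for leukocyte, 4 for fibroblast and smooth muscle, 3 for hepatocyte and 2 for neural genes. Without replicate 2, they were 3 for hepatocyte and 3 for neural genes.

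Receptor tyrosine kinases passed in 27 of 54 cases, with a median of 21.4, below the 29.4 of all genes. With the dimmest probe of each gene the count was 16. ERBB3, the kinase-impaired partner of ERBB2, was the brightest at 1963 and 2426, but its dimmest probe was not above background. MET, the receptor of hepatocyte growth factor, read 1138 and 1217, and EPHA1, an ephrin receptor, read 987 and 1187. ERBB2 read 560 and 574 on 1 of 3 probes, and EGFR read 282 and 286 with 2 of 4 probes above background. FGFR3 and FGFR4, receptors of fibroblast growth factors, read 514 and 605 and 285 and 311. The dimmest probe of FGFR4 was also not above background. IGF1R, the receptor of insulin-like growth factors, read 7.5 and 8.6, and INSR, the insulin receptor, passed on 1 array at 14.9 and 31.3. FGFR1, FGFR2, PDGFRA, AXL, KDR and ERBB4 were not above background.

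Nuclear receptors passed in 22 of 40 cases, close to the share of all genes with the brightest probe. With the dimmest probe 11 of 40 passed, against 8472 of all 20039 genes. PPARG, the fatty acid sensing receptor of colon and fat, read 5500.3 on each array, although 2 of its 4 probes were not above background. NR2F6, an orphan receptor, read 1004 and 1193, and ESRRA, a regulator of mitochondrial genes, read 685 and 579. RXRB and RXRA, the shared partners of many receptors, read 389 and 399.6 and 337 and 351. VDR, the vitamin D receptor, was weak at 41.4 and 68.6, and NR3C1, the glucocorticoid receptor, passed on 1 array at 35.5 and 13.6. ESR1 passed on 1 array at -0.9 and 17.4, and PGR, the progesterone receptor, was below 0 on both.

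Receptors for cytokines and related signals passed in 38 of 55 cases. CCR6, the receptor of the chemokine CCL20, read 13241 and 13456, but on 1 of 3 probes, and its dimmest probe averaged -10.9. IFNGR1 and IFNGR2, the interferon gamma receptor chains, read 3549.9 and 3747 and 2687 and 2965. TNFRSF10B, the TRAIL receptor DR5, read 1846 and 2151. TGFBR2, a TGF-beta receptor chain, read 548 and 606, while TGFBR1 passed on 1 array at 16.6 and 7.6. NOTCH1 read 106 and 169, NOTCH3 read 29.5 and 35.9 and NOTCH2 read 24.4 and 24.7. TLR2, TLR4 and TLR5, receptors of bacterial products, were not above background, whereas TLR3, which senses double-stranded RNA, read 72.6 and 69.0.

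Ligands passed in 36 of 60 cases, 10 of them strongly. MIF, macrophage migration inhibitory factor, read 14268 and 14033, CCL20 read 10041 and 9819, and GDF15, a stress cytokine of the TGF-beta family, read 8514 and 8784. The chemokines CXCL8 (interleukin 8) and CXCL1, which draw neutrophils, read 8034 and 6711 and 5567 and 5098. IL18, a cytokine made by gut epithelium, read 4819 and 4829. CCL20 and its receptor were thus both bright on the probes used. Among ligands of EGFR, TGFA read 379 and 328, HBEGF read 332 and 302 and EREG read 250.0 and 289, and all 3 were moderate. BMP4, a morphogen of the colon crypt, read 613 and 599.7. EGF, HGF, IGF1, IL6 and TGFB1 were not above background, TGFB1 at -2.4 and -1.7.

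Carbon metabolism was among the brightest areas. In glycolysis 24 of 30 genes were above background, 14 strongly, with a median of 706. GAPDH read 22434 and 21709, ENO1, enolase, read 18271 and 18209, and LDHB and LDHA, the lactate dehydrogenase chains, read 15048 and 14433 and 13109 and 14060.1. Of the first enzymes, HK1 read 2612 and 2746 and HK2 506 and 504. SLC2A1, the glucose transporter GLUT1, read 773 and 686, and SLC2A3 (GLUT3) was not above background at 2.6 and 1.5. Of the others not above background, PDK1 is a kinase that restrains pyruvate dehydrogenase, PGK2 and GAPDHS are sperm forms, HK3 is a form of blood cells and PGAM2 is the muscle form. The citrate cycle list had 25 of 26 genes above background with a median of 1529, led by MDH2, malate dehydrogenase, at 19175 and 18480.2 and CS, citrate synthase, at 6858 and 5988. PC, pyruvate carboxylase, passed on 1 array at 6.3 and 33.4.

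Oxidative phosphorylation followed the ribosome as the next brightest list, with 53 of 58 genes above background, 47 strongly, and a median of 5454. COX7C, a cytochrome oxidase subunit, read 20451 and 21444 and ATP5F1A, the ATP synthase alpha subunit, read 19017 and 19514. The 5 genes not above background, COX6B2, COX6A2, COX4I2, COX7A1 and COX8C, are the testis, muscle or lung forms of cytochrome oxidase subunits, and each other measured subunit on the list was above background. NDUFC2, of complex I, was the dimmest of these at 24.4 and 33.2. In fatty acid oxidation and ketogenesis 16 of 21 passed, with ACADVL, the very long chain dehydrogenase, at 4763 and 5479. In gluconeogenesis and glycogen use 12 of 17 passed. PCK2, the mitochondrial PEP carboxykinase, read 2575 and 2654, and PCK1, the cytosolic form, read 43.3 and 38.5.

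Lipid and cholesterol synthesis passed in 30 of 31 cases with a median of 973. INSIG1, a sterol-regulated brake on the pathway, read 9232 and 10128, FASN, fatty acid synthase, read 7926 and 8770.4, and SCD, the stearoyl-CoA desaturase, read 7373 and 8265. HMGCS1, which makes the mevalonate precursor, read 4751 and 5689. FADS2, the delta-6 desaturase, was the exception at 12.4 and 3.7, while FADS1 read 1112 and 1068. Nucleotide synthesis also passed in 30 of 31 cases, with IMPDH2, of guanine nucleotide synthesis, at 8994 and 9834. TYMS, thymidylate synthase, the target of fluorouracil, read 4454 and 4102, and TYMP, thymidine phosphorylase, read 2928 and 2445. DPYD, which breaks fluorouracil down, was the exception here at -3.7 and -9.7.

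Amino acid genes passed in 28 of 39 cases, 17 strongly, and the strong ones are mainly enzymes of synthesis. PHGDH, the first enzyme of serine synthesis, read 12602 and 12434, and PSAT1, the next, read 5121 and 5224. SHMT2, the mitochondrial serine hydroxymethyltransferase, read 7784 and 7223, and MTHFD2, which follows it, read 3599 and 3719. ASNS, asparagine synthetase, read 8423 and 8339.5. ASS1, which makes argininosuccinate, read 9741 and 8887, but ASL, the next enzyme, read 50.7 and 59.4, and CPS1, OTC and ARG1 were not above background. GLUL, glutamine synthetase, was weak at 24.3 and 20.8. KYNU, kynureninase, read 2182 and 2114, whereas IDO1 and KMO, other enzymes of tryptophan breakdown, were not above background.

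Drug-handling genes were uneven, with 29 of 48 above background and a median of 36.1. GSTP1, a glutathione transferase, read 17220.1 and 17055, and GPX2, the glutathione peroxidase of gut epithelium, read 8138 and 7770.0. AKR1C3, an aldo-keto reductase, read 3759 and 3693, and its near-identical relative AKR1C1 read -10.9 and -11.9. UGT1A6, a glucuronosyltransferase, read 3496 and 3818. UGT1A genes share their last exons, and signal from UGT1A6 and its relatives cannot be told apart there. ABCB1, the efflux pump P-glycoprotein, read 373 and 438, and ABCG2, a second pump, read 2.4 and 10.3. Of 14 cytochrome P450 genes 7 passed, CYP2J2 alone strongly at 1586 and 1449, and CYP3A4, the main liver form, did not.

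Proliferation genes passed in 37 of 38 cases, 22 of them strongly, with a median of 1233. MCM7, a subunit of the replicative helicase, read 9369.7 and 10156, and all 6 subunits MCM2 to MCM7 were above background. CDC20, an activator of the anaphase-promoting complex, read 5418 and 5626, and TOP2A, topoisomerase 2 alpha, read 4063 and 4122. Among D-type cyclins, CCND2 read 5712 and 6593, CCND1 read 3557 and 3796 and CCND3 read 559.5 and 570.1. MKI67, the common proliferation marker Ki-67, read only 39.5 and 48.4 on its lone probe, in contrast to the rest of the list. CCNE2, cyclin E2, was the only member not above background, at -8.7 and -0.4.

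Of 18 measured mismatch repair and associated replication genes, 17 were above background, with a median of 699. MSH3, which takes part in the recognition of insertion and deletion loops, read 16737 and 15369 on the brighter of 2 probes, the other averaging 751. MSH6, which takes part in the recognition of base mismatches, read 2082 and 2264, and PMS2, a repair endonuclease subunit, read 126 and 128. MLH3 passed on 1 array at 14.9 and 36.9. Of 25 p53 pathway genes, 22 were above background. CDKN1A (p21), the cell-cycle inhibitor induced by p53, read 2931 and 3532, and ZMAT3, another target, read 4319 and 4369. MDM2, the ubiquitin ligase of p53 and itself a target, was weak at 71.7 and 73.5.

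Antigen presentation genes passed in 20 of 24 cases, with a median of 469. HLA-B read 2280 and 2899 and B2M, the light chain of class I, read 1554 and 1585. ERAP2, which trims peptides, read 4422 and 4441. HLA-DRA, a class II chain normally seen in immune cells, read 1432 and 1469, while HLA-DRB1 read 4.7 and -5.7 and CIITA, the class II regulator, read -4.1 and -14.7. Of other class II pathway genes, CD74, HLA-DMA and HLA-DPA1 passed. Many HLA genes are near-identical to one another or polymorphic, and signal among such genes cannot be told apart. PDIA3, a chaperone of class I loading found in most cells, was not above background at 8.8 and 5.2.

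HOX genes, which record position along the body, passed in 16 of 29 cases. Of the HOXA cluster HOXA2 alone was analysed here, at 43.8 and 31.3. Among the other clusters HOXB held the brightest genes, with 7 of 10 above background. HOXB5 read 1542 and 1597, HOXB7 read 1462 and 1458, HOXB8 read 1386 and 1368 and HOXB6 read 382 and 377. HOXB13, a hindgut and prostate gene, was weak at 79.2 and 75.2. In the HOXC cluster 2 of 9 passed, with HOXC6 moderate at 733 and 683, and in the HOXD cluster 6 of 9 passed, all under 100. Secreted proteases and inhibitors passed in 26 of 44 cases, and the bright members were mainly inhibitors. PI3, the elastase inhibitor elafin, read 7126 and 6951, SPINT2, an inhibitor of membrane serine proteases, read 5512 and 5819, and TIMP1 read 2757 and 2443. Of 10 matrix metalloproteinases, MMP7 and MMP11 passed, both under 100.

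Housekeeping genes used for normalisation were all above background, 22 of 27 strongly, with a median of 3098, and gave the scale of the array. ACTG1 read 26024 and 25167, ACTB 12739 and 12567, HPRT1 3030.5 and 2997, GUSB 1140 and 1132, and TBP 420.4 and 367. SNRPD3 was the dimmest at 116 and 85.6. Genes of this kind thus spanned more than 2 orders of magnitude on their probes.

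Promoter sequence was read beside the classes, for the 10616 protein-coding genes with exactly 1 window in the RefSeq-based promoter table (GRCh38.p14), from 250 bases before to 50 after the start. Windows are shown for genes at opposite ends of the ranking and of different roles, as the 150 bases before the start, 5′ to 3′ on the strand of the gene, in lower case with CpG dinucleotides in capitals. RPS6 (chr9:19380237-19380386, minus strand) stands for the ribosomal genes. REG4 (chr1:119811461-119811610, minus), CCL20 (chr2:227813692-227813841, plus) and CXCL8 (chr4:73740419-73740568, plus) are strong secreted products. KRT20 (chr17:40885243-40885392, minus) is a moderate marker of differentiation, and FABP1 (chr2:88128063-88128212, minus) is an enterocyte gene without signal.
RPS6: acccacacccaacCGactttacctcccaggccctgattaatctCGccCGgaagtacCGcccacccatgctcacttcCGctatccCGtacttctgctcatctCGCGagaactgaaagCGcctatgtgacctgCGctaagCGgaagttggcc
REG4: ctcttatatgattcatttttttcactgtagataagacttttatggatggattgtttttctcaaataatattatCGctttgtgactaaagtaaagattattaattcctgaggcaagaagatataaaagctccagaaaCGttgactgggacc
CCL20: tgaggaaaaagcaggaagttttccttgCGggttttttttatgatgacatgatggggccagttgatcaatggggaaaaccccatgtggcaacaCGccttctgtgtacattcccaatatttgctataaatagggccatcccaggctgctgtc
CXCL8: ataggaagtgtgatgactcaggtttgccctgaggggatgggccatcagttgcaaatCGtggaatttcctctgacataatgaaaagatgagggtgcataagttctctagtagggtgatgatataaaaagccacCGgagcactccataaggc
KRT20: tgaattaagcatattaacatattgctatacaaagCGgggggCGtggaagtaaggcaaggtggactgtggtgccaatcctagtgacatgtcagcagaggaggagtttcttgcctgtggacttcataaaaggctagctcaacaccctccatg
FABP1: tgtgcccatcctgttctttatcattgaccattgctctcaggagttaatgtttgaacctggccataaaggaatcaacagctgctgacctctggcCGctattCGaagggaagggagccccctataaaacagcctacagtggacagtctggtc
The stretch of RPS6 holds 11 CpG, and each of the others holds 2. The letters TATAAA begin 31 bases before the start in REG4, CXCL8 and FABP1 and 29 bases before it in CCL20, and do not occur in the stretches of RPS6 and KRT20. REG4, CCL20 and CXCL8 read strongly and FABP1 did not pass the threshold, so neither feature separated bright from dim genes among these.

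Across classes the number of CpG in the window differed most at the dim end. Its median was 27 in strong genes, 28 in moderate genes and 26 in weak genes, but 18 in genes above on 1 array and 9 in genes not above background, against 23 over all. Windows with at most 5 CpG made up 2.54% of strong genes, 10.7% of weak genes and 40.7% of genes not above background. Among strong members of the lists such windows were found in CCL20, GPX2, CXCL8, KRT8, CEACAM6, REG4, MUC13, PGAM1, KYNU, FGFBP1, CEACAM5, CD68 and TNFRSF1A. In all, 36 strong genes had such windows. The lists were chosen partly for genes that colorectal cells use, so the kinds of genes named here follow from that choice. By list, the median was 26 in 52 ribosomal protein genes and 30 in 23 housekeeping genes, with no window at or below 5 in either. It was 2 in 6 colorectal epithelium markers, 4 in 27 absorptive genes and 2 in 10 keratins. Lists of other tissues were as low, at 3 in 9 hepatocyte genes, 3 in 9 squamous genes, 4 in 8 leukocyte genes and 4.5 in 6 muscle genes, and drug metabolism genes had a median of 4 in 30, so few CpG were not particular to the epithelial lists.

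**Figure D5:**
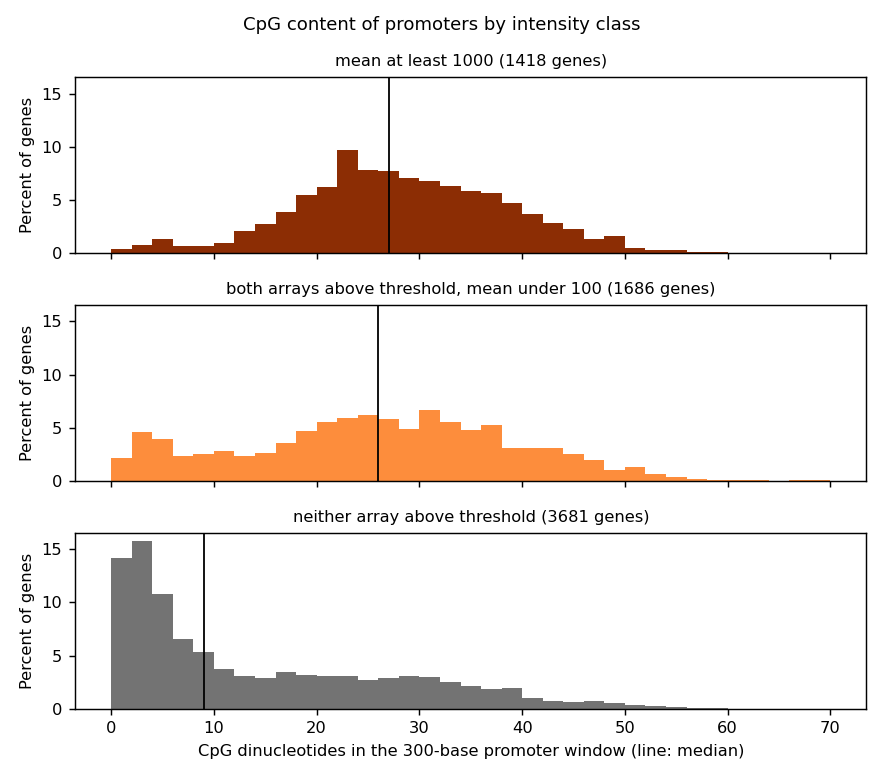
Percent of genes (vertical axis) by number of CpG in the promoter window (horizontal axis) for strong, weak and not-above genes, with the median as a line. The peak near 27 in strong genes is joined by a second peak at few CpG in weak genes, and the few-CpG peak is the main one in genes not above background, whose median is 9.

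Motifs were searched on both strands of the same windows. TATAAA occurred in 6.21% of strong genes and 17.5% of genes not above background, against 10.3% over all and 11.5% of every window in the table. GGGCGG, the core of Sp1 sites, which itself holds a CpG, occurred in 72.1% and 40.7% of these classes, against 60.2% over all and 45.0% of every window. CCGGAAG, an ETS-type motif that also holds a CpG, occurred in 26.6% and 6.63%, against 15.6% over all and 10.3% of every window. CCAAT differed little, at 41.0% and 36.6%, against 37.5% over all and 34.6% of every window. TTTATNG, where N is any base, resembles the CDX site and occurred in 6.14% and 12.2%, against 8.31% over all and 9.73% of every window. A match of letters is a description of the window and no evidence of binding.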

How the data were processed

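RNA of 6 LoVo samples was hybridised to Illumina bead arrays, and the 2 control arrays were analysed here. Per the submitters' processing notes, GenomeStudio was used, its version not being given in the sources used here. The deposited table holds 1 linear intensity for each of 47323 probes and each array. The authors had already background-subtracted and quantile-normalised these intensities, as the values show: 30.5% lie below 0 on each array, and the arrays differ by at most 0.4 at equal rank. A further 12 columns match no sample's labels and were not used. The number of arrays and the choice of probe limit the precision.

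Probes were named from the platform annotation, with symbols updated to RefSeq by gene ID (30074 probes) or accession (18), 21 being kept as given. Of all probes 17202 have no gene listed and 8 have several, and these were left out. The threshold, just under 16.6, was set earlier for the whole study. The same rule on the control arrays alone, where negative values had a root mean square of 9.99, gives 16.44. The threshold was exceeded by 20659 and 20641 probes per array. Named genes are the 30 brightest, members of the lists, the 10 widest replicate differences, the 8 genes nearest to the threshold and 6 strong genes with a dim probe. Members and lists were chosen with earlier results of these data known. No test was planned or made. Scripts ran in Python 3.11.15 with numpy 2.4.6, pandas 2.3.3 and matplotlib 3.10.9, and were tested on simulated data. Alternatives were other thresholds, probe rules, offsets, promoter windows (chosen after seeing the data) and each array alone.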

Additional observations from a re-analysis of the deposited data

How the results depend on the processing

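The number of genes above background, 10689, ranged from 8472 with each gene's dimmest probe to 11648 with a threshold of 10, and was 9445 with a threshold of 33. With replicate 1 or 2 left out it was 11615 or 11647. Among genes with a lone probe 48.1% passed. The number of strong genes, 2333, depended on the probe rule: it was 1867 with the median probe and 1539 with the dimmest, since genes with several probes then lose their brightest one. The SD of the log2 difference between arrays was 0.24 and rose to 0.39 when genes not above background were kept. With an offset of 50 it was 0.19. Of the members of the lists, 783 passed, from 645 with the dimmest probe to 831 without replicate 1. By list, the count moved by over 1.5 times in 8 of 44 lists with the dimmest probe, 6 with the threshold of 33, 3 with the threshold of 10, 7 without replicate 1 and 4 without replicate 2. Median CpG counts used 1 window per gene, and with the first window of every gene, an alternative added after seeing the data, the medians of strong genes and of genes not above background remained 27 and 9. No paired analysis was possible because the result comes from no test and 1 group was described. With 2 arrays, weak genes near the threshold are the least certain.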

Other observations

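Long non-coding and small RNA genes had smaller shares above background than protein-coding genes. Of 17774 protein-coding genes 57.3% were above background, against 19.8% of 798 long non-coding RNA genes, 38.4% of 279 small nucleolar RNA genes and 4.63% of 561 microRNA genes. The arrays read microRNA genes through probes for their longer transcripts and do not measure mature microRNAs. The following genes were chosen after their values were seen. The brightest long non-coding RNAs were mostly hosts of small nucleolar RNAs: SNHG32 read 14140.1 on each array, SNHG5 read 12110 and 12498, SNHG6 read 9115 and 9473, and ZFAS1 read 7499.7 and 9266. EPB41L4A-AS1, an antisense RNA that is also such a host, read 10344 and 10677. Only 15 long non-coding RNA genes were strong. The brightest small nucleolar RNA gene, SNORD3D, read 576 and 647.

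By chromosome, the share of protein-coding genes above background ran from 42.9% on X (318 of 741) to 66.9% on chromosome 15. Chromosome 16 followed at 65.0% and chromosome 14 at 64.0%, and chromosomes 11 and 19 stood at 49.7% and 50.3%. The share of strong genes was highest on chromosome 12, at 17.9%, and lowest on X among those named here, at 7.42%. Median genomic span was 20.8 kb in strong genes, 33.3 kb in moderate genes, 31.5 kb in weak genes and 19.3 kb in genes not above background, so the shortest spans lay at both ends of the ranking.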
